A study of Mus musculus with 8 samples.

Results

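The genes Ccr1, Ccr2, Ccr7, Cx3cr1, Cxcr4, Ly6c2 and Plac8 were followed across adipose tissue macrophages as a readout of chemokine receptor expression and of recent monocyte origin. They were taken by symbol from the deposited expression tables, and all 7 were listed in both the table of high-fat diet (HFD) mice, with 17740 genes, and the table of normal diet (ND) mice, with 16436 genes. The cells were adhesion-related macrophages (ARMs), freed by vortexing from the floating adipocyte layer of digested epididymal white adipose tissue (eWAT), and stromal vascular fraction macrophages (SMs, titled NARM in the labels), both sorted on CD45, CD11b and F4/80. Every mouse was a wild-type (WT) C57BL/6J male on chow (ND) or on HFD for 8 weeks, and the methods of the study give 6 weeks as the age at which diets began. Each of the 4 groups of diet and cell type had 2 RNA-seq libraries, each a pool of 6 HFD mice or 10 ND mice, so errors describe the spread between pools and not between animals.

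Chemokine receptors are G protein-coupled receptors that steer leukocytes along gradients of chemokines. In the mouse, classical monocytes carry high Ly6C and CCR2, leave the bone marrow through CCR2, and enter inflamed tissue such as obese fat, where they lose Ly6C as they become macrophages. Nonclassical monocytes carry low Ly6C and high CX3CR1, CXCR4 retains cells in the bone marrow through CXCL12, CCR1 answers CCL3 and CCL5, and CCR7 takes dendritic cells to lymph nodes. Ly6c2 encodes the Ly6C of classical monocytes, and Plac8 is a small cysteine-rich protein abundant in the same cells.

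Ly6c2 needs its sequence shown first, since some of its reads are hard to tell from those of its neighbour Ly6c1, which endothelial cells express. On the mouse build GRCm38 (mm10), Ly6c2 (Entrez 100041546) lies at chr15:75108161-75112066 and Ly6c1 (Entrez 17067) at chr15:75044018-75048920, both on the minus strand. The coding sequences of GENCODE M21 have 393 bases each, differ at 9 of them and share an identical stretch of 188 bases. The first 180 coding bases are given for each, 5′ to 3′, with the 6 bases that differ in capitals.
Ly6c2: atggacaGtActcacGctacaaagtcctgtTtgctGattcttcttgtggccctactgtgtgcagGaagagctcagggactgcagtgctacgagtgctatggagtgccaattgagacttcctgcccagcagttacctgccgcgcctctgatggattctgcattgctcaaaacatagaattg
Ly6c1: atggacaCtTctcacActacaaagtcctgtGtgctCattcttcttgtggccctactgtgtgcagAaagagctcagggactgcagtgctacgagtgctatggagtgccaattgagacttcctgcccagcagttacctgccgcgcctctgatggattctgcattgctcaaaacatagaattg

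Of the 817 windows of 50 bases along protein-coding Ly6c2 transcripts, 255 (31.2%) also occurred in another gene, 252 of them in Ly6c1. At 100 bases the shared part was 14.9%. Ccr2 shared 1.91% of its 50-base windows with other genes, and Cx3cr1 shared 1.06%. The other 4 genes shared none. Estimated counts that are not whole numbers show where reads were divided among genes. They occurred for Ly6c2 in 4 HFD and 3 ND libraries, for Ccr2 in 4 HFD libraries and 1 ND library, and for Cx3cr1 in the 4 HFD libraries.

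The libraries held between 14508824 and 19040133 estimated reads. Estimated counts were not whole for 32.3% to 32.9% of genes in HFD libraries but for 8.55% to 9.36% in ND libraries, so the tables differ in how reads fell on genes, whether through the libraries or their processing. ARMs were therefore tested against SMs within each diet, while HFD and ND are set side by side as values, since diet and table cannot be told apart. The 8 markers of the sorted macrophages, among them Ptprc (CD45), Itgam (CD11b) and Adgre1 (F4/80), summed to between 6876 and 8069 TPM in every library, and none was called between ARMs and SMs in either diet. Markers of other cells did move: the 8 adipocyte genes summed to 368.5 to 608.7 TPM in ARM libraries and 101.2 to 230.7 in SM libraries, and the 7 fibroblast genes to 329.6 to 620.9 and 146.8 to 241.5. The 9 endothelial genes, Ly6c1 included, summed to 131.0 and 134.6 TPM in HFD ARMs, 42.1 and 60.1 in HFD SMs, 43.9 and 83.3 in ND ARMs, and 33.3 and 35.4 in ND SMs. The 9 neutrophil genes summed to 85.8 to 103 TPM in HFD libraries, and to 77.2 and 136 TPM in ND ARMs against 187 and 149 in ND SMs, where Ngp had 147 counts in the first SM library. In bulk RNA, fewer cells of a type and less RNA per cell cannot be told apart.

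By TPM, a level scaled for gene length and library size, the receptors fell into an abundant and a scarce set. In HFD ARMs the order of mean TPM was Cxcr4, Ccr1, Ccr2, Cx3cr1, Plac8, Ccr7 and Ly6c2, from 423 down to 2.86. Libraries of neighbours in that order did not overlap down to Plac8, whereas Plac8 overlapped Ccr7, and Ccr7 overlapped Ly6c2. HFD SMs had the same first 3 genes, after which Cx3cr1 and Ccr7 overlapped, as did Ly6c2 and Plac8. In ND mice Ccr1 stood first, above Cxcr4, in ARMs and in SMs, and Ccr2 followed them in both. At the low end of ND SMs, Plac8 overlapped Cx3cr1 and Ccr7 overlapped Ly6c2, and in ND ARMs Ccr7 overlapped Ly6c2. Over the 8 libraries the monocyte markers Ly6c2 and Plac8 reached at most 13.7 TPM, while Ccr2 was at 53.9 TPM or more.

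**Figure D1:**
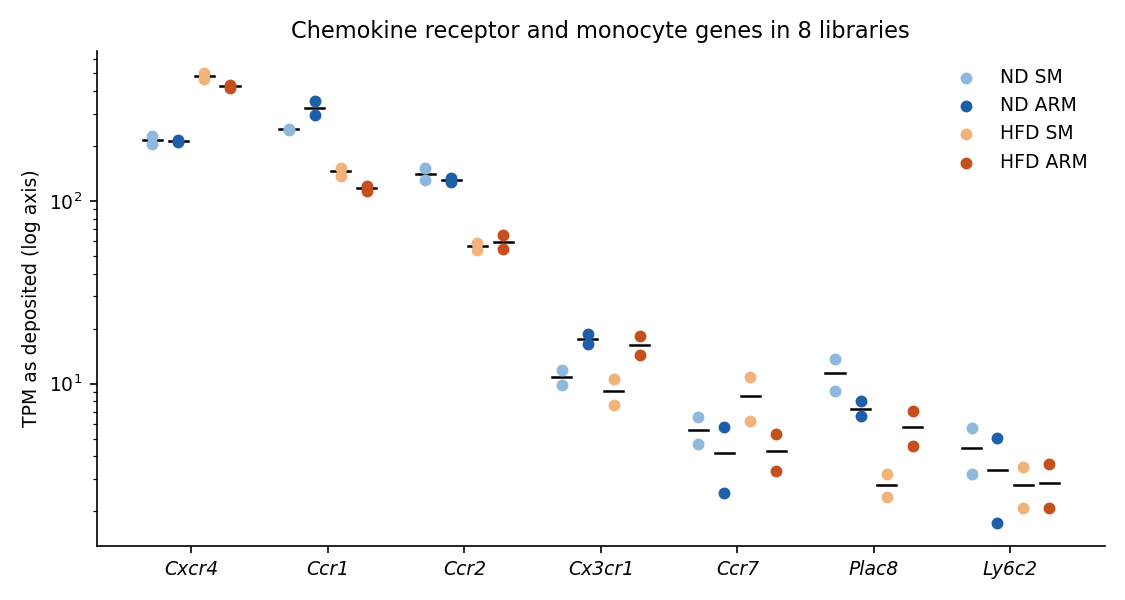
Deposited TPM of the 7 genes (log axis) in each of the 8 libraries, as points coloured by diet and cell type, with a line at the mean of each group (n = 2). Cxcr4, Ccr1 and Ccr2 form the abundant set, and Cxcr4 is higher in HFD libraries while Ccr1 and Ccr2 are higher in ND libraries.

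Cx3cr1, the receptor for fractalkine (CX3CL1), was the one gene of the 7 that was called between ARMs and SMs, in both diets and higher in ARMs. Calls required more than 1.5-fold and an adjusted p below 0.05 (edgeR's quasi-likelihood test, adjusted over all genes). Cx3cr1 (Entrez 13051) lies at chr9:120048683-120068296 on the minus strand. In HFD mice its level was 14.4 and 18.2 TPM in the ARM libraries and 7.67 and 10.6 TPM in the SM libraries. In ND mice it was 16.4 and 18.6 TPM in ARMs and 9.77 and 11.8 TPM in SMs. Both ARM libraries stood above both SM libraries in each diet. The log2 fold change of ARMs over SMs was 0.80 in HFD mice (SE 0.144, 1.75-fold, edgeR adjusted p = 0.00670), over counts of 423 and 548 against 246 and 319. In ND mice it was 0.59 (SE 0.136, 1.504-fold, edgeR adjusted p = 0.0199), over counts of 429 and 444 against 258 and 325. The ND value lay just past the fold required. Without ND ARM replicate 2 it was 0.47 (edgeR adjusted p = 0.247), and without ND SM replicate 1 it was 0.47 (edgeR adjusted p = 0.243), neither of them a call. The HFD call was lost without HFD ARM replicate 2 (0.62) and without the filter on low counts (0.80, edgeR adjusted p = 0.124). The ND value was short of 1.5-fold with library totals (0.58) or without that filter (0.58). At 0.59 it was also short of the log2 fold change of 0.6 that the study's methods require.

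Read against all genes, 1 of 7 called in HFD mice compares with 634 of 13337 genes tested (4.75%), and 1 of 7 in ND mice with 458 of 12441 (3.68%). Libraries of ARMs and SMs did not overlap, in TMM-scaled counts (CPM), for 5 of the 7 genes in HFD mice, where 52.7% of all genes tested did not overlap. In ND mice this held for 4 of the 7, against 44.0% of all genes. Whether the ARM over SM change itself differed by diet was tested as an interaction across the 8 libraries. By edgeR 0 of the 7 were called, against 22 of 13358 genes (0.165%). At an unadjusted edgeR p under 0.05 there were 2 of the 7, Ccr1 and Plac8, against 1017 of the 13358 genes. DESeq2 called 1 of the 7, Ccr1, and over all genes 34 higher and 62 lower. For Cx3cr1 the difference between diets was 0.20 (95% interval -0.26 to 0.66).

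**Figure D2:**
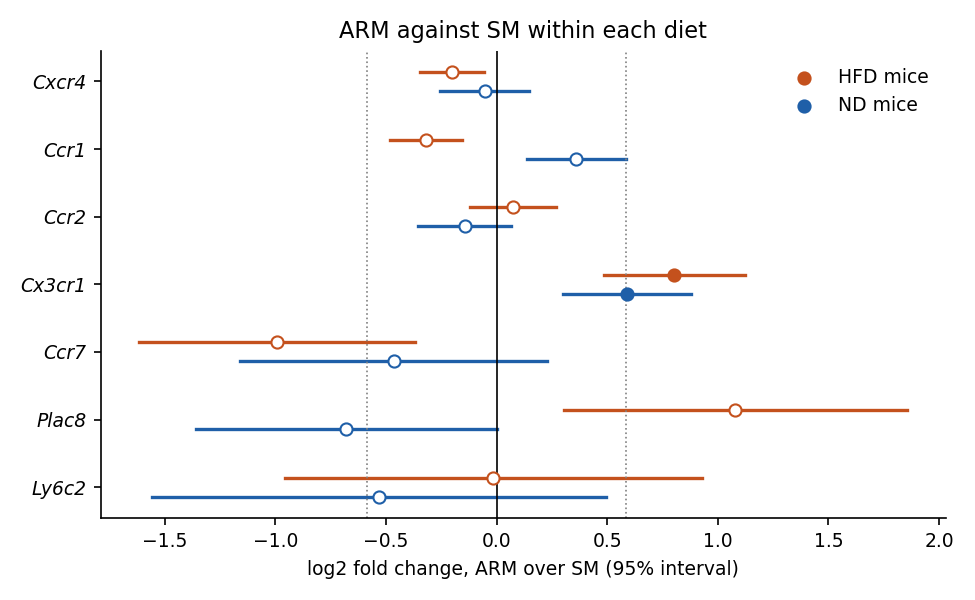
Log2 fold change of ARMs over SMs with its 95% interval (horizontal axis) for the 7 genes in HFD and ND mice. Filled points were called, dotted lines mark a 1.5-fold change, and only Cx3cr1 has filled points, at 0.80 and 0.59.

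Ccr2, the receptor for CCL2 that brings classical monocytes into tissue, was at similar levels in ARMs and SMs. The gene (Entrez 12772) lies at chr9:124101918-124109140 on the plus strand. Its level in HFD mice was 54.3 and 64.8 TPM in ARMs and 53.9 and 58.7 TPM in SMs. ND mice had 133 and 126 TPM in ARMs and 130 and 151 TPM in SMs. The TPM ranges of ARMs and SMs overlapped in each diet. Its log2 fold change was 0.07 in HFD mice (95% interval -0.12 to 0.27, edgeR adjusted p = 0.678) and -0.14 in ND mice (95% interval -0.35 to 0.07, edgeR adjusted p = 0.578). Neither interval reached a 1.5-fold change, so a difference of that size was outside what the spread between these pools allowed. In CPM the ND libraries did not overlap, with SMs higher.

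Ccr1, a receptor for inflammatory chemokines on monocytes and macrophages, lay on opposite sides in the 2 diets. It is encoded by Entrez 12768 at chr9:123962126-123968692 on the minus strand. In HFD mice it was at 120 and 114 TPM in ARMs and at 152 and 138 TPM in SMs. ND mice showed 354 and 293 TPM in ARMs and 248 and 246 TPM in SMs. ARM libraries were the lower ones in HFD mice and the higher ones in ND mice, without overlap in either. The log2 fold change in HFD mice was -0.32 (SE 0.072, edgeR adjusted p = 0.0213), past the p but short of a 1.5-fold change. In ND mice it was 0.36 (SE 0.106, edgeR adjusted p = 0.0693). The difference between the diets was -0.70 (95% interval -0.99 to -0.40), with an edgeR p of 0.000198 and an adjusted p of 0.0755. It passed with DESeq2 (adjusted p = 0.000825), with the replicate number as a block (edgeR adjusted p = 0.00324) and without ND ARM replicate 2 (edgeR adjusted p = 0.0115). In the other 10 of 13 alternatives it did not pass, with an edgeR adjusted p of 0.430 at most, without HFD ARM replicate 2.

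Cxcr4, the CXCL12 receptor, was the most abundant chemokine receptor transcript of HFD macrophages. The gene (Entrez 12767) lies at chr1:128588199-128592299 on the minus strand. Its level in HFD mice was 414 and 432 TPM in ARMs and 500 and 465 TPM in SMs. ND mice had 209.6 and 215 TPM in ARMs and 205 and 226 TPM in SMs. The HFD libraries did not overlap, with SMs higher, and the ND libraries did overlap. The log2 fold change was -0.20 in HFD mice (95% interval -0.35 to -0.06, edgeR adjusted p = 0.0796) and -0.05 in ND mice (95% interval -0.26 to 0.15, edgeR adjusted p = 0.872). Both intervals lay within a 1.5-fold change.

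Ccr7, the lymph node homing receptor of migratory dendritic cells, was scarce. The gene (Entrez 12775) lies at chr11:99144199-99155077. In HFD mice it was at 3.30 and 5.26 TPM in ARMs and at 6.22 and 10.8 TPM in SMs, over counts of 56 and 89 against 107 and 186. The ND libraries held 2.53 and 5.81 TPM in ARMs and 4.65 and 6.53 TPM in SMs, over counts of 36 and 73 against 62 and 91. SMs were the higher ones in HFD mice without overlap, and the ND libraries overlapped. For ARMs over SMs the log2 fold change was -0.99 in HFD mice (SE 0.281, edgeR adjusted p = 0.0527), just short of a call, and -0.47 in ND mice (SE 0.325, edgeR adjusted p = 0.593). The HFD value was a call with DESeq2 (-0.99, adjusted p = 0.0441), with a minimum of 10 counts in every library (edgeR adjusted p = 0.0316), with the replicate block (edgeR adjusted p = 0.00405) and without HFD SM replicate 1 (-1.34, edgeR adjusted p = 0.000280). It was no call in 10 of the 15 alternatives, and fell to -0.54 without HFD SM replicate 2 (edgeR adjusted p = 0.244) and to -0.70 without HFD ARM replicate 1 (edgeR adjusted p = 0.365). Of the 8 migratory dendritic cell markers, which include Ccr7, 2 had a log2 fold change above 0 in HFD mice (median -0.56) and 0 were called by edgeR in either diet. Among all genes tested, 48.5% were above 0 in HFD mice and 46.45% in ND mice. Ccl22, a chemokine of mature dendritic cells, was at -0.78 in HFD mice (edgeR adjusted p = 0.0512). Fscn1, of the same list, went the other way at 0.53 in HFD mice (edgeR adjusted p = 0.0334), short of 1.5-fold. In ND mice 4 of the 8 were above 0 (median 0.18), with Fscn1 at 0.74 (edgeR adjusted p = 0.060) and Ccl22 at -0.07 (edgeR adjusted p = 0.965). The part of dendritic cells in the Ccr7 values was not tested.

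Plac8 (Entrez 231507, chr5:100551589-100572253, minus strand) was scarce in all libraries and, like Ccr1, lay on opposite sides in the 2 diets. In HFD mice it was at 4.53 and 7.10 TPM in ARMs and at 3.19 and 2.39 TPM in SMs, over counts of 29 and 42 against 20 and 14. The ND libraries held 6.60 and 7.99 TPM in ARMs and 13.7 and 9.08 TPM in SMs, over counts of 29 and 31 against 56 and 40. ARMs were the higher ones in HFD mice and the lower ones in ND mice, without overlap in either. Its log2 fold change was 1.08 in HFD mice (SE 0.350, edgeR adjusted p = 0.0852) and -0.68 in ND mice (SE 0.319, edgeR adjusted p = 0.336). The HFD value was a call with a minimum of 10 counts in every library (1.09, edgeR adjusted p = 0.0476) and at the looser threshold of the study's methods, but not in the 13 other alternatives, with an adjusted p of 0.365 in DESeq2 and, in edgeR, 0.478 without HFD ARM replicate 2. In ND mice the value was -0.37 without ND SM replicate 1. Of 6 neutrophil markers tested in ND mice all but 1 had a log2 fold change below 0, and S100a9, a calgranulin subunit, was called lower in ARMs (-1.42, edgeR adjusted p = 0.0119). In HFD mice all 4 neutrophil markers tested were above 0 (median 0.52) and 0 were called. The part of neutrophils in the Plac8 values was not tested. The difference between diets was 1.74 (95% interval 0.72 to 2.76), with an edgeR p of 0.00266 and an adjusted p of 0.219.

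Ly6c2 had few reads in every group. Its level in HFD mice was 3.63 and 2.09 TPM in ARMs and 2.07 and 3.51 TPM in SMs. ND mice had 1.72 and 5.02 TPM in ARMs and 3.19 and 5.69 TPM in SMs. ARMs and SMs overlapped in both diets. The estimated counts ran from 8.99 to 30.1 per library. The log2 fold change was -0.01 in HFD mice (95% interval -0.96 to 0.93, edgeR adjusted p = 0.990) and -0.53 in ND mice (95% interval -1.56 to 0.50, edgeR adjusted p = 0.709), so a difference of 1.5-fold was not detectable at this depth. Ly6c1 took most of the reads of the pair: Ly6c2 held 11.4% and 6.46% of their summed counts in HFD ARMs, 10.3% and 22.5% in HFD SMs, 8.64% and 15.6% in ND ARMs, and 20.2% and 32.7% in ND SMs. Ly6c1 itself was called higher in HFD ARMs (log2 fold change 0.92, SE 0.172, edgeR adjusted p = 0.00865), alongside 7 other of the 9 endothelial markers, and was at 0.77 in ND mice (edgeR adjusted p = 0.0880). Among all genes tested in HFD mice, 4.75% were called. How far reads assigned to Ly6c2 came from Ly6c1, through the sequence that the genes share, was not tested.

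**Figure D3:**
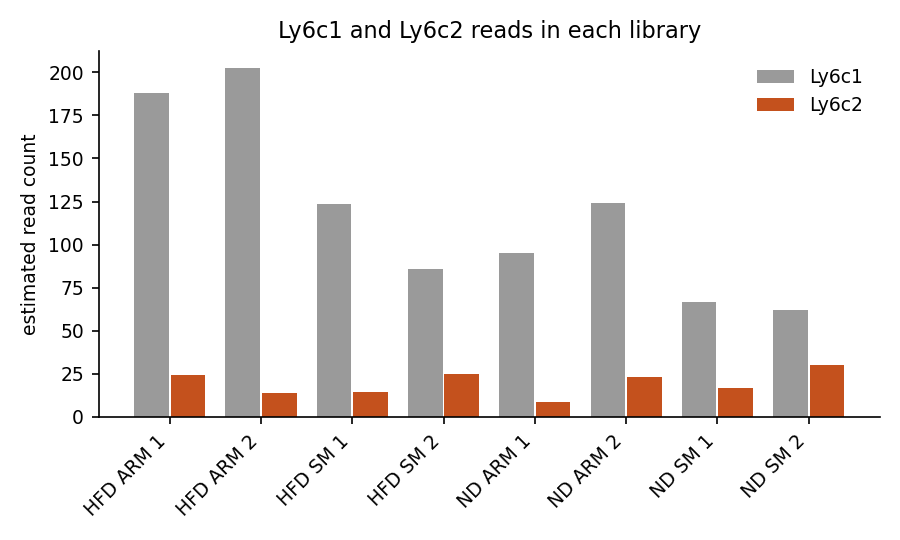
Estimated read counts of Ly6c1 (grey) and Ly6c2 (orange) in each library. Ly6c1 exceeds Ly6c2 in every library, by the most in the second HFD ARM library (202.4 against 13.98) and by the least in the second ND SM library (61.9 against 30.1).

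The other markers of classical monocytes were read beside Ly6c2, Ccr2 and Plac8, from a list of 12 that includes these 3. Of all genes tested, 48.5% were above 0 and 4.75% were called in HFD mice. The shares in ND mice were 46.45% and 3.68%. In HFD mice 10 of the 12 were tested, 8 had a log2 fold change above 0, and 3 were called, all higher in ARMs (median 0.40, against -0.01 over all genes). These were Hp, which encodes haptoglobin and is also made by adipocytes (2.08, edgeR adjusted p = 2.70e-05), Thbs1, the matrix glycoprotein thrombospondin-1 (0.97, edgeR adjusted p = 0.00134), and Chil3, the chitinase-like protein Ym1 (0.85, edgeR adjusted p = 0.0387). In ND mice all 12 were tested, 3 had a log2 fold change above 0 (median -0.19, against -0.02 over all genes), and those 3 were called: Hp (1.11, edgeR adjusted p = 0.000881), Thbs1 (0.88, edgeR adjusted p = 0.00296) and Vcan, the proteoglycan versican (0.72, edgeR adjusted p = 0.0350). The summed level of the list was 230.8 and 241.4 TPM in HFD ARMs and 195.2 and 203.2 in HFD SMs, without overlap. Hp and Thbs1 carried that order: without them, a choice made after seeing the data, the sum was 160.2 and 156.6 TPM in ARMs and 166.3 and 167 in SMs, with SMs higher. That reduced order rested in turn on Ifitm6, at 78.9 and 59.5 TPM in HFD ARMs against 94.0 and 88.1 in HFD SMs. Its log2 fold change was -0.41 (edgeR adjusted p = 0.0736), and among the tested markers only Ly6c2 was also below 0. In ND mice the whole list summed to 458.6 and 504.4 TPM in ARMs and 492.0 and 496.1 in SMs, with overlap, and without Hp and Thbs1 it was 370.9 and 375.5 TPM in ARMs and 434.3 and 445.2 in SMs. The fibroblast and adipocyte markers named above moved with Hp, Thbs1 and Vcan, and their part in these values was not tested.

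Cx3cr1 belongs to a list of 11 markers of nonclassical monocytes. In HFD mice 10 of the 11 were tested, 8 had a log2 fold change above 0 (median 0.48), and Cx3cr1 and Ear2, an eosinophil-associated ribonuclease (0.86, edgeR adjusted p = 0.000354), were called. In ND mice 9 of the 11 were tested, all 9 were above 0 (median 0.33), and Cx3cr1 and Ace, the angiotensin-converting enzyme (1.14, edgeR adjusted p = 0.00309), were called. Over all genes tested, 48.5% in HFD and 46.45% in ND mice were above 0, and 4.75% and 3.68% were called. In CPM, ARM and SM libraries did not overlap for 9 of 10 markers in HFD mice (52.7% of all genes). In ND mice this held for 2 of 9 (44.0% of all genes). Ace, which is also an endothelial gene, was at 0.54 in HFD mice (edgeR adjusted p = 0.0214), short of 1.5-fold. Of the 9 endothelial markers, 8 were called in HFD mice and 1 in ND mice, all higher in ARMs. The part of endothelial cells in the Ace values was not tested. Nr4a1, the transcription factor that nonclassical monocytes require, was at -0.18 in HFD mice (edgeR adjusted p = 0.128) and 0.06 in ND mice (edgeR adjusted p = 0.864). The 10 markers of resident macrophages, such as Lyve1, Timd4 and Folr2, had log2 fold changes below 0 throughout, with a median of -0.31 in HFD and one of -0.17 in ND mice, and 0 were called by edgeR. In HFD mice most of them passed the p but not the fold, among them Lyve1 (-0.58, edgeR adjusted p = 0.00134) and Folr2 (-0.44, edgeR adjusted p = 0.00293). Timd4 (-0.33, edgeR adjusted p = 0.0605), Mrc1 and Pf4 did not pass it. In ND mice only Cd209f did (-0.47, edgeR adjusted p = 0.0236).

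Ccr1, Ccr2, Ccr7, Cx3cr1 and Cxcr4 were 5 of 24 mouse chemokine receptors examined. Of all genes tested, 48.5% in HFD and 46.45% in ND mice were above 0, and 4.75% and 3.68% were called. In HFD mice 16 receptors passed the filter on low counts, 9 had a log2 fold change above 0 (median 0.10), and Cx3cr1 was the one called. In ND mice 14 passed, 8 were above 0 (median 0.19), and 3 were called, all higher in ARMs. These were Cx3cr1, Ackr3, an atypical receptor that scavenges CXCL12 (1.74, SE 0.227, edgeR adjusted p = 0.000326), and Ccrl2, an atypical receptor that binds chemerin (0.79, SE 0.110, edgeR adjusted p = 0.000537). Ackr3 in ND mice was at 9.75 and 13.9 TPM in ARMs against 3.32 and 3.57 TPM in SMs. In HFD mice it was at 13.9 and 12.4 TPM in ARMs against 11.3 and 9.30 TPM in SMs, and was not called (0.34, edgeR adjusted p = 0.138). Ccrl2 was the second most abundant receptor in HFD macrophages, at 292.4 and 336.1 TPM in ARMs and 215.4 and 232.9 TPM in SMs, and its change there did not reach 1.5-fold (0.48, edgeR adjusted p = 0.00300).

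**Figure D4:**
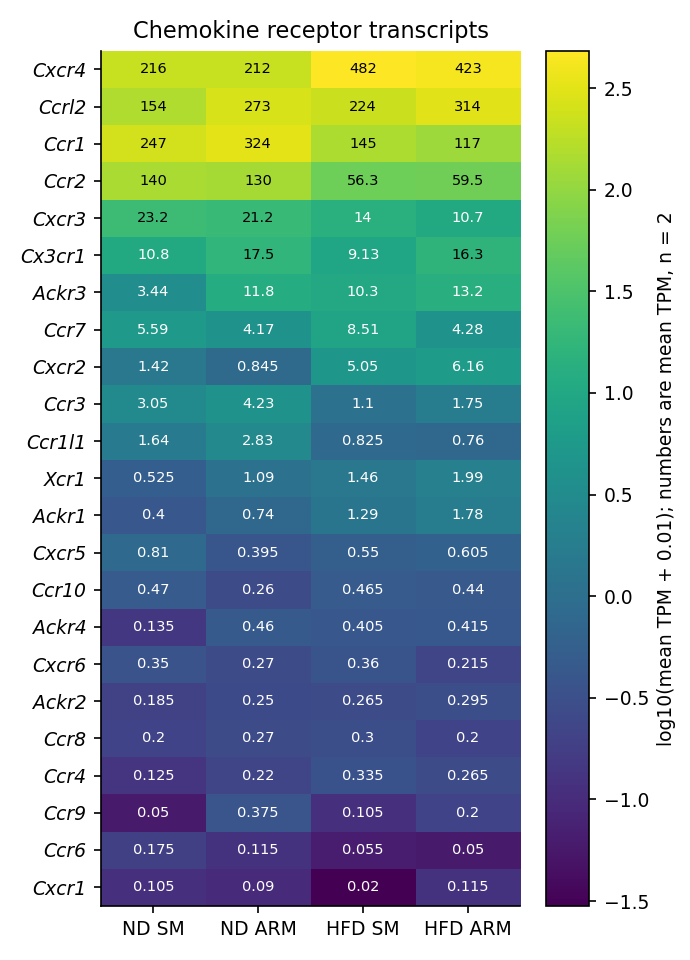
Mean TPM of 23 chemokine receptors (rows, ordered by their mean) in the 4 groups (columns, n = 2 libraries each), with colour on a log10 scale and the mean printed in each cell. Cxcr4, Ccrl2, Ccr1 and Ccr2 are far above the remaining receptors drawn, in every group.

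Levels of the receptors' ligands spanned a wide range. For the counts below, 4.75% of all genes tested were called in HFD mice and 3.68% in ND mice. Ccl2, the main CCR2 ligand, was at 1589 to 3484 TPM, while Cx3cl1, the ligand of CX3CR1, was at 0.83 to 3.27 TPM and was not called in either diet. Of 12 ligand genes, 3 were called in HFD mice, all higher in ARMs: Ccl3 (0.97, edgeR adjusted p = 7.13e-05) and Ccl5 (0.95, edgeR adjusted p = 0.00776), which act on CCR1, and Ccl12 (0.59, edgeR adjusted p = 0.000514), which acts on CCR2. In ND mice 2 were called, Ccl3 (1.47, edgeR adjusted p = 1.96e-06) and Ccl21a, a CCR7 ligand of lymphatic vessels (edgeR adjusted p = 0.00101), whose ARM libraries held 41.6 and 42.2 reads and whose SM libraries held 0 and 5.48, so that the fitted log2 value of 4.01 rests on almost no SM reads. Of 16 genes for receptor trafficking and signaling, 2 were called in HFD mice: Grk3, a kinase that turns off chemokine receptors, was higher in ARMs (0.69, edgeR adjusted p = 0.00134), and Klf2, a transcription factor of leukocyte trafficking, was lower (-0.62, edgeR adjusted p = 0.000616). In ND mice 0 of the 16 were called by edgeR at this fold, while Klf2 was at -0.53 (edgeR adjusted p = 0.00361) and Rgs1, an inhibitor of G protein signaling, at 0.49 (edgeR adjusted p = 0.0190).

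Set side by side, the mean levels of Ccr1, Ccr2 and Cxcr4 differed between the diets by 1.70 to 2.77 times. Ccr2 in ND mice was 2.18 times its HFD level in ARMs and 2.50 times in SMs, by mean TPM. Ccr1 was 2.77 times higher in ND than in HFD ARMs and 1.70 times in SMs. Cxcr4 went the other way, with the HFD level 1.996 times the ND level in ARMs and 2.24 times in SMs. None of these 3 genes overlapped between diets in either cell type. Plac8 was 4.08 times higher in ND than in HFD SMs by TPM and 3.50 times by CPM, without overlap, whereas its ARM libraries overlapped. Cx3cr1, Ccr7 and Ly6c2 overlapped between diets in both cell types by TPM. In all, 3 of the 7 genes did not overlap in ARMs by TPM, against 71.5% of all genes, and 4 of the 7 in SMs, against 71.8%. By CPM the genes without overlap were 3 in ARMs and 5 in SMs. About 9.82% of genes in ARMs and 10.6% in SMs differed by more than 2-fold in mean TPM, and the median gene was shifted by -0.07 and -0.05 (log2, HFD over ND). For Plac8 the gene length implied by the HFD table was 1.24 times that of the ND table, for Ly6c2 1.14 times, and for the other 5 between 1 and 1.07 times, so the TPM of these genes also carry the difference between the tables.

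**Figure D5:**
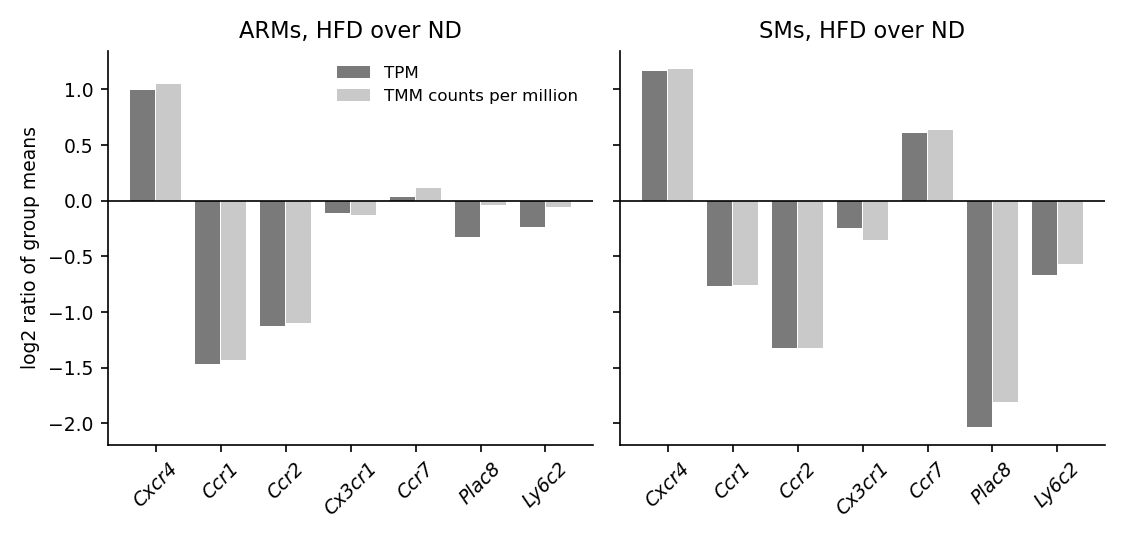
Log2 ratio of group means (vertical axis), HFD over ND, for the 7 genes in ARMs (left) and SMs (right), by deposited TPM (dark) and by CPM (light), n = 2 libraries per group. Cxcr4 is above 0 and Ccr1 and Ccr2 below 0 in both panels, and Plac8 is far below 0 in SMs alone.

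For each gene, the genes most like it over the 8 libraries were found by Pearson's r of log2(CPM + 1), centred within each diet, among 9430 genes. With so many genes and so few libraries a high r is easily reached, and the libraries share depth and makeup, so these are descriptions. Cx3cr1 was most like Pdgfb (r = 0.986) and Malt1 (0.986), Ccr1 most like Fbxo30 (0.977) and St6galnac6 (0.964), and Ccr2 most like Naa25 (0.958) and Mtbp (0.955). Cxcr4 was most like Ccdc47 (0.981) and Trmt2b (0.980), and Ccr7 most like Aqr (0.985) and BC049352 (0.970). Plac8 was most like Adssl1 (0.982) and Ivd (0.967), and Ly6c2 most like Numa1 (0.985) and Uck2 (0.972).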

How the data were processed

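RNA of sorted ARMs and SMs was sequenced by BGI on Illumina instruments. One table per diet was deposited by the authors, holding for each gene and library an expected count of reads (an estimate that can divide reads among genes), an FPKM and a TPM. The submitters' processing notes name the build mm10. The aligner, counter and annotation are not given in the sources used here. Groups came from sample titles and diet labels, and the 7 genes and all lists were chosen with earlier results of these data known.

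Expected counts were rounded and fitted within each diet with edgeR 4.0.16 (R 4.3.3), TMM scaling, filterByExpr, quasi-likelihood tests and p-values adjusted by Benjamini-Hochberg over all genes tested, and all 7 genes passed the filter in both diets. A call required more than 1.5-fold and an adjusted p below 0.05. The diets' difference was an interaction in one fit of all 8 libraries, called below the same adjusted p. Pipelines were tested on simulated data. Alternatives were DESeq2 1.42.0, limma 3.58.1 on log2(FPKM + 1) or log2(FPKM + 0.1), other scalings, filters and thresholds, the replicate number as a block, and each library left out. Text names the 7 genes, called or cell-defining members of the lists, and others where they bear on a stated sum or count. It also names the 2 genes most like each of the 7 among those with at least 5 CPM in each diet. One receptor of the list is counted but not reported here by itself. Positions are RefSeq on GRCm38 and sequences GENCODE M21. Intervals cover the spread between pools. Plots used matplotlib 3.10.9 (Python 3.11.15).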

Additional observations from a re-analysis of the deposited data

Results flagged for a closer look

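The ARM against SM change of Ccr1 had opposite directions in the 2 diets, with every ARM library below the SM libraries in HFD mice and above them in ND mice, and the difference of log2 fold changes was -0.70 (HFD less ND). Plac8 was reversed the other way, with a difference of 1.74. Both differences were tested as an interaction in edgeR over all genes and neither passed after adjustment (adjusted p = 0.0755 and 0.219).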

How the results depend on the processing

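In HFD mice 1 of the 7 genes was called. The count was 2 with DESeq2, 3 with at least 10 counts in every library, 3 with the threshold of the study's methods (log2 fold change over 0.6, unadjusted p under 0.05), 0 with no filter on low counts, 0 with limma on log2(FPKM + 1) without a filter, and 0 to 2 with 1 library left out. In ND mice 1 was called, and the count was 0 with library totals, with no filter, with the methods' threshold, and with limma on log2(FPKM + 1) with or without its filter, and 0 to 1 with 1 library left out. Of the difference between diets 0 were called by edgeR, 1 with DESeq2, and 0 to 1 with 1 library left out. The 3 genes without overlap between diets in ARMs became 3 to 7 with 1 library left out. The 4 such genes in SMs became 5 by CPM and 5 to 6 with 1 library left out. Leaving out a library narrows a group's range, so such counts can only stay or rise. The share of all genes was not counted for these reduced sets. With the replicate block the number called was 2 in HFD mice (Cx3cr1 and Ccr7), 1 in ND mice and 1 (Ccr1) for the difference. Same-numbered libraries deviated together with r = -0.03 in HFD and 0.22 in ND mice over genes, with 2 pairs each. The labels do not say whether such libraries came from the same pool of mice, and so few pairs cannot settle it.

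Directions turned for weak changes. Ly6c2 in HFD mice was 0.013 with library totals, 0.029 with limma on log2(FPKM + 1), filtered or not, 0.046 on log2(FPKM + 0.1), and -0.46 to 0.46 with 1 library left out. With 1 library left out, Ccr2 in HFD mice ran from -0.052 to 0.19, and in ND mice Ccr7 from -1.17 to 0.026, Cxcr4 from -0.11 to 0.0065 and Ly6c2 from -1.46 to 0.062. The diet difference then ran from -0.995 to 0.18 for Ccr7 and from -0.055 to 1.44 for Ly6c2. The cause was not tested.

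Over all genes, 595 were called higher and 39 lower in HFD ARMs. Without a filter these were 167 and 14, with limma on log2(FPKM + 1) 319 and 12, unfiltered 33 and 2, on log2(FPKM + 0.1) 382 and 23, and with the methods' threshold 922 and 95. In ND mice 442 and 16 became 273 and 7 with DESeq2, 719 and 67 with the replicate block, 794 and 94 with the methods' threshold, 202 and 12 with limma, 208 and 11 on log2(FPKM + 0.1), and 0 with limma unfiltered (1915 at an unadjusted p under 0.05; edgeR unfiltered gave 587 and 40). For the diet difference 9 and 13 became 34 and 62 with DESeq2, 53 and 134 with the block and 15 and 26 unfiltered. With 1 library left out the counts ran from 198 (without HFD ARM replicate 2) to 587 and 16 to 58 in HFD mice, from 171 (without ND ARM replicate 2) to 617 and 15 to 44 in ND mice, and from 0 (without ND SM replicate 2, where 1127 genes had an unadjusted p under 0.05 in edgeR) to 30 and 0 to 72 for the diet difference. Of 300 log2 changes of single genes under alternatives, 268 kept their direction and their side of the threshold. Ly6c2 dropped out in ND mice at 10 counts per library.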

Other observations

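Ccr1 and Ccr2 lie in one cluster of receptor genes on mouse chromosome 9, where 4 genes, Ccr1, Ccr1l1, Ccr3 and Ccr2, lie within 147015 bases. All 4 had higher TPM in ND than in HFD libraries, without overlap, in both ARMs and SMs, as 71.5% and 71.8% of all genes lacked overlap in one direction or the other. Ccr3, the eotaxin receptor, was 2.42 times higher in ND than in HFD ARMs and 2.77 times in SMs, at levels of 1.10 to 4.23 TPM, and Ccr1l1 was 3.72 and 1.98 times higher at 0.76 to 2.83 TPM. Xcr1, on the side of Ccr1 away from Ccr2, had the opposite order, with the HFD level 1.82 times the ND level in ARMs and 2.78 times in SMs, at 0.525 to 1.99 TPM. Diet and table cannot be told apart, and the cluster was looked at after the values of Ccr1 and Ccr2 were known.

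Cxcr2, a neutrophil receptor, was 7.28 times higher in HFD than in ND ARMs (6.15 against 0.845 TPM, the latter from 0.40 and 1.29 TPM over 9.04 and 25.0 counts, which gives 4.77 times without the first and 15.4 times without the second) and 3.56 times in SMs, while the 9 neutrophil markers, Cxcr2 included, summed to 85.8 to 103 TPM in HFD libraries and 77.2 to 187 in ND libraries. Diet and table cannot be told apart here either. Estimated counts of Cxcr2 were not whole in any HFD library, nor in ND ARM 1 and ND SM 2 (9.04 and 30.2). Cxcr2 was singled out after its values were seen.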
